A study of Mus musculus with 6 samples.

Results

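Tight junction genes encode the belt that seals neighbouring epithelial cells to each other, and 9 of them were followed here: Ocln, Marveld2, Cldn1, Cldn3, Cldn4, Cldn7, Tjp1, Tjp3 and Cgn. They were chosen by symbol, from probe sets annotated to 1 of these genes alone. The rule holds no measured value, but the genes were proposed with earlier results of these data known. Of the 9, 8 were measured, by 14 probe sets, among 12393 genes and 22626 probe sets tested. Cgn, the gene of the cytoplasmic plaque protein cingulin, had no probe set of its own and is not analysed here.

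Messenger RNA was measured on 6 Affymetrix mouse arrays, 3 of miR-34a samples and 3 of vector samples. The miR-34a samples came from 344SQ cells with inducible expression of the microRNA miR-34a, and the vector samples from 344SQ cells that carried the control vector. 344SQ, which both groups share, is a metastatic mouse lung cancer line that the submitters describe as rich in Zeb1. The series' design text and the miR-34a sample titles speak of primary tumours grown in mice, while the other fields speak of cultured cells. No inducing agent, time of induction, strain or age of mice is given in the sources used here. No label states that the 3 samples of a group were separate mice or cultures. The p-values therefore cover the spread between these samples alone, and that spread may be technical. Mature miR-34a was not measured. Its sequence is shown because it is the agent that the groups differ in, with the seed, bases 2 to 8, in capitals (RefSeq, GRCm38.p6, chr4:150068473-150068494, plus strand):

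mmu-miR-34a-5p: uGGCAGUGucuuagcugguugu

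Occludin (Ocln), tricellulin (Marveld2) and the claudins are the proteins of the junction that span the membrane. Claudins form the paracellular barrier and its pores, occludin lies along the contact between a pair of cells, and tricellulin gathers where the corners of cells meet. The scaffold proteins ZO-1 (Tjp1), ZO-3 (Tjp3) and cingulin (Cgn) tie them to the actin cytoskeleton. In epithelial-mesenchymal transition, repressors such as ZEB1 and SNAI1 bind E-boxes, short promoter motifs, and are known to silence junction genes.

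The vector 1 array stood apart from the other 5. On the first principal component of all genes, which held 61.0% of the variance, it lay at -43.33, the other vector arrays at -5.42 and -8.75, and the miR-34a arrays between 16.25 and 21.66. Array medians of the deposited intensities ran from 466.7 to 484.2. Of 12 epithelial marker genes, all measured, the median lay at the 79.8 percentile of gene levels. The cadherin gene Cdh1 and the keratin gene Krt8 were at 99.2 and 99.9, and 3 genes, Esrp1, St14 and Rab25, were in the dimmest part of the table, at 18.9, 21.1 and 21.9. Percentiles tell how bright a probe set was and do not rank transcripts of different genes.

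The members differed in direction. Ocln was 3.95-fold higher in miR-34a samples and Marveld2 1.40-fold higher. Tjp1 was 1.36-fold lower. Neither the 4 claudins Cldn1, Cldn3, Cldn4 and Cldn7 nor Tjp3 passed the test, and their values follow below. So 2 of 8 measured members passed as higher and 1 as lower at a limma adjusted p under 0.05, against 6.5% of all genes tested as higher and 5.25% as lower (11.7% in all). With 8 genes these counts are a description only. The median change of the members was -0.10 on the log2 scale, beside 0.02 over all genes. The values of 4 of the 8 members did not overlap between the groups, in a table where 34.9% of genes did not. In the fit without vector 1, 1 member passed as higher, Ocln, and 1 as lower, Tjp1.

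**Figure D1:**
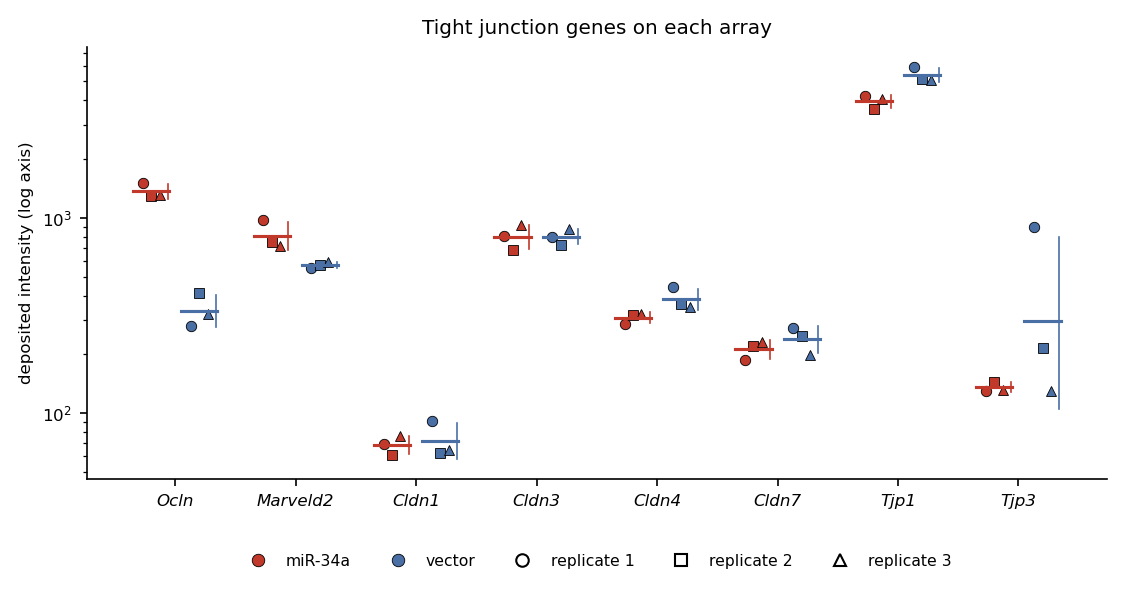
Deposited intensity (log axis) of the 8 measured tight junction genes on each of the 6 arrays, by the main probe set of each gene, miR-34a arrays in red left of vector arrays in blue. Horizontal lines are means and vertical lines SD (n = 3), both taken on the log2(intensity + 16) scale. The Ocln values lie at 1289 to 1508 in miR-34a arrays, above all vector arrays, and Tjp3 has 1 vector array far above the other 5.

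Ocln had intensities of 1508, 1289 and 1309.7 on the miR-34a arrays, against 279.7, 410.2 and 323.2 on the vector arrays. All 3 miR-34a arrays lay above all vector arrays, and the gap between the groups was wider than the spread within either. On the log2(intensity + 16) scale, which understates the change of dim genes, it averaged 10.43 ± 0.12 in miR-34a samples and 8.45 ± 0.27 in vector samples (SD, n = 3). The change, miR-34a minus vector, was 1.98 ± 0.14 (SE), with a 95% interval of 1.64 to 2.32 (limma adjusted p = 0.00201). It held in each of 15 other settings, with changes of 1.84 to 2.13 and adjusted p of 0.000122 to 0.0217, and was 1.86 without vector 1. Ocln has 1 probe set, so a repeat by other probes of the gene was not at hand. In bulk samples such as these, more cells of a type and more RNA per cell cannot be told apart.

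Marveld2 encodes tricellulin, which shares the MARVEL membrane domain with occludin. Its intensities were 972.8, 753.2 and 721.8 in miR-34a samples, against 553.7, 574.3 and 591.4 in vector samples. The groups did not overlap, with miR-34a 1 the highest array, and the vector arrays lay close together. The change was 0.49 ± 0.12 (SE; 95% interval 0.20 to 0.77; limma adjusted p = 0.0467). That call was marginal. It was lost in each of the 6 fits that drop an array. The adjusted p was 0.1, 0.0887 and 0.091 as miR-34a 1, 2 and 3 were dropped, and 0.0501, 0.0901 and 0.106 as vector 1, 2 and 3 were. The change itself stayed above 0 in these fits, between 0.36 and 0.57. The call was lost as well with a pseudocount of 1, quantile normalization, median centring or the replicate number as a block, with adjusted p of 0.0509, 0.0677, 0.0638 and 0.0987.

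Marveld1, another gene of the MARVEL family that was listed among the other junction genes, was higher as well. Its main probe set read 3546, 3358 and 3212 in miR-34a samples, against 1605, 2094 and 2229.7 in vector samples. The change was 0.78 ± 0.13 (SE; limma adjusted p = 0.0158), and its other probe sets changed by 0.44 and 0.71 (adjusted p over all probe sets 0.0152 and 0.00942). All 3 probe sets of the gene separated the groups. The main one and the one at 0.71 are of the kind named x_at, in which probes can also bind related sequences. The call was lost when any 1 miR-34a array was dropped, with adjusted p of 0.0749, 0.0529 and 0.0694 for arrays 1, 2 and 3, and with the replicate block (0.0518). Marveld3, which encodes a tight junction protein of the family, changed by -0.06 (adjusted p = 0.908) and was dim, at the 17.1 percentile. Marveld3 was named after its value was seen.

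The 4 claudins of the set gave no call in either direction. Cldn3, a barrier-forming claudin, had intensities of 808.3, 685.8 and 918.7 in miR-34a samples, against 800.5, 729.5 and 872.3 in vector samples. The groups overlapped fully, and the 95% interval of the change ran from -0.30 to 0.30 on the log2 scale. Its main probe set and 1 other are of the kind named x_at, in which probes can also bind related sequences. A pair of further Cldn3 probe sets changed by 0.06 and 0.18. The dimmest one read 203.4, 208.0 and 468.5 in miR-34a samples, against 149.5, 141.9 and 130.8 in vector samples. There miR-34a 3 stood well above the other 5 arrays, and the change of 0.88 ± 0.29 (SE) did not pass (adjusted p over all probe sets 0.0954).

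Cldn4, a claudin of simple epithelia whose gene lies beside Cldn3, read 287.5, 316.4 and 322.7 in miR-34a samples, against 440.1, 361.2 and 350.9 in vector samples. The groups did not overlap, miR-34a being the lower, but vector 1 stood above the other vector arrays and the miR-34a values lay close beneath the lowest vector one. The change was -0.30 ± 0.11 (SE; 95% interval -0.55 to -0.04; limma adjusted p = 0.126), and -0.20 without vector 1. Cldn7, a claudin found also along the lateral membrane, read 186.9, 221.6 and 231.7 in miR-34a samples, against 272.3, 249.4 and 199.3 in vector samples. These groups overlapped, with a change of -0.15 ± 0.13 (SE; 95% interval -0.47 to 0.16; limma adjusted p = 0.507), and -0.06 without vector 1.

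Cldn1, a claudin that is essential to the skin barrier, was dim on every array. Its main probe set lay at the 5.8 percentile of genes, with 69.6, 61.2 and 76.1 in miR-34a samples, against 91.3, 62.5 and 64.6 in vector samples. The groups overlapped, and the change of -0.05 had a 95% interval of -0.38 to 0.28. Its other 3 probe sets changed by -0.11, 0.52 and -0.08, the last of them with 61.7, 58.3 and 70.3 in miR-34a samples and 86.2, 51.9 and 69.5 in vector samples. The one at 0.52, an x_at probe set at the 1.8 percentile of probe sets, read 51.4, 29.9 and 28.8 in miR-34a samples, against 19.5, 20.7 and 20.15 in vector samples. Its groups did not overlap (limma adjusted p over all probe sets 0.0769). None of the 4 passed over all probe sets, where 13.0% did. Without vector 1 the change of the main probe set was 0.09. No detection calls were used, so it is not known whether these values are above background.

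**Figure D2:**
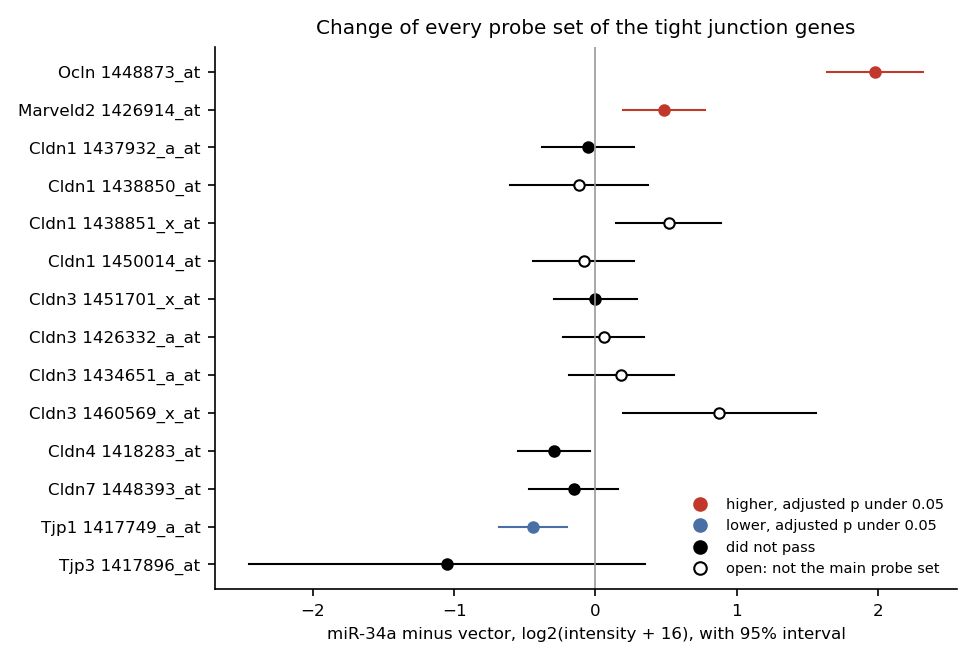
Change of each of the 14 probe sets of the tight junction genes, miR-34a minus vector on the log2(intensity + 16) scale, with 95% intervals from the limma fit over all probe sets. Red and blue points passed as higher and lower, black did not pass, and open points are probe sets other than the main one of a gene. Ocln lies at 1.98, far from the rest, and the interval of Tjp3 spans -2.45 to 0.35.

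The scaffold gene Tjp1, which encodes ZO-1, read 4221, 3628 and 4067 in miR-34a samples, against 5956, 5161 and 5092 in vector samples. All miR-34a arrays lay below all vector arrays. The change was -0.44 ± 0.10 (SE; 95% interval -0.68 to -0.20; limma adjusted p = 0.0351), opposite in sign to Ocln and Marveld2. The call was kept without vector 1 (adjusted p = 0.0362) and lost when any other array was dropped. The adjusted p was 0.0902, 0.102 and 0.116 as miR-34a 1, 2 and 3 were dropped, and 0.0562 and 0.0724 as vector 2 and 3 were. With the replicate number as a block it was 0.0688. In these 6 fits the change lay between -0.49 and -0.37.

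Tjp3, the gene of ZO-3, a scaffold protein largely confined to epithelia, read 130.4, 144.8 and 131.0 in miR-34a samples, against 900.1, 215.2 and 129.6 in vector samples. Vector 1 alone stood far above the other 5 arrays, and vector 3 lay below every miR-34a array. The change of -1.05 ± 0.60 (SE; limma adjusted p = 0.307) therefore had a wide 95% interval, -2.47 to 0.37, and it was -0.28 without vector 1. Epcam, an epithelial adhesion gene that did not pass either, had its lowest value on vector 1, with 1001, 1142 and 950.7 in miR-34a samples and 304.8, 977.0 and 1463 in vector samples. Epithelial genes were mixed on that array: Cdh1 was at its lowest there, at 12237, and Krt19 at its highest, at 19739. The summed intensity of the 12 epithelial markers was highest on vector 1, at 104958. It was 91250.5 and 87723.5 on the other vector arrays and 91924 to 99300 on the miR-34a arrays.

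**Figure D3:**
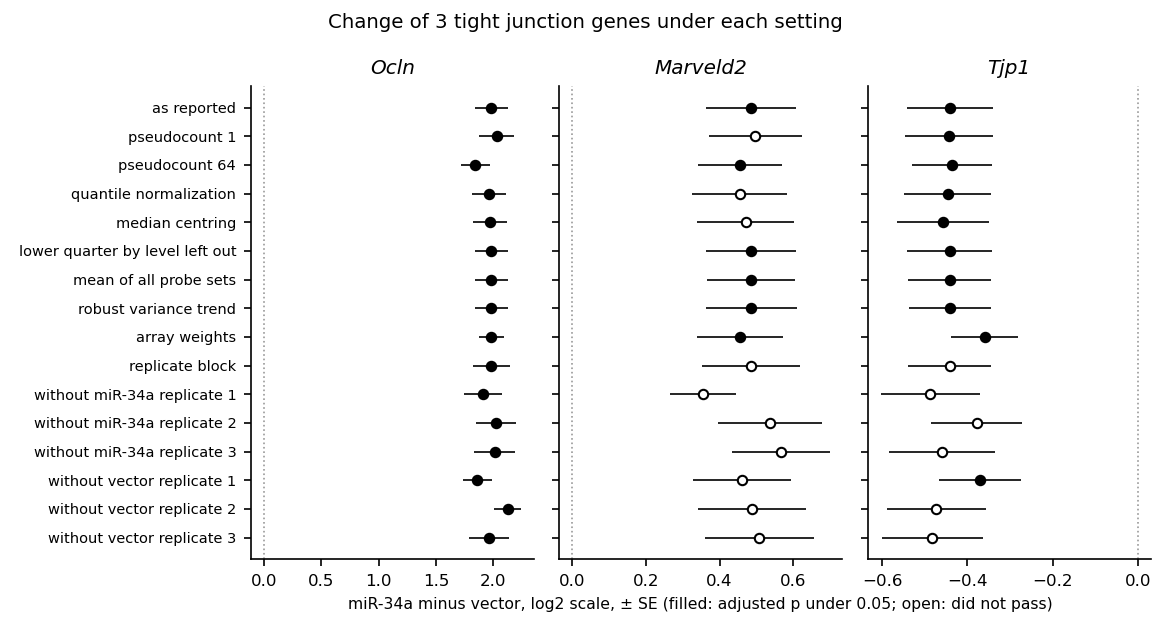
Change of Ocln, Marveld2 and Tjp1, miR-34a minus vector on the log2 scale with SE, as reported and under 15 other settings. Filled points passed an adjusted p under 0.05 and open points did not. The Ocln points are all filled, between 1.84 and 2.13. For Marveld2 all 6 fits without 1 array are open, and for Tjp1 5 of them are.

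The promoters of 4 members are shown because these genes stand for the different outcomes: Ocln and Marveld2, which were higher, Tjp1, which was lower, and Cldn3, whose groups overlapped. Each is 300 bases, from 250 before to 50 after an annotated start site (RefSeq, GRCm38.p6), 5′ to 3′ on the gene's strand. Capitals mark CAGGTG, which read on the opposite strand is CACCTG, the E-box that ZEB and SNAI repressors bind. Ocln lies at chr13:100552669-100552968 and Marveld2 at chr13:100616922-100617221, both on the minus strand. Tjp1 lies at chr7:65371195-65371494, minus strand, and Cldn3 at chr5:134985964-134986263, plus strand.
Ocln: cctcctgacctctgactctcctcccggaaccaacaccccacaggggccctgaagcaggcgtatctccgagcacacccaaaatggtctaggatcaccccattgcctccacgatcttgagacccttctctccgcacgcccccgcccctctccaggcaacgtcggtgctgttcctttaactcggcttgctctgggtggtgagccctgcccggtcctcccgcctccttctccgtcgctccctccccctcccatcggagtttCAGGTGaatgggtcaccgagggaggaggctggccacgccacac
Marveld2: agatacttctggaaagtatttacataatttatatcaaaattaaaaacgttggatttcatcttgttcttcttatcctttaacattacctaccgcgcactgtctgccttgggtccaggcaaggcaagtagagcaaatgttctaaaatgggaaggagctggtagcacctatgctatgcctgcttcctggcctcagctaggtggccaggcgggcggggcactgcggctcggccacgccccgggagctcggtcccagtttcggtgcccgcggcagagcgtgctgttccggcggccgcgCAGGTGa
Tjp1: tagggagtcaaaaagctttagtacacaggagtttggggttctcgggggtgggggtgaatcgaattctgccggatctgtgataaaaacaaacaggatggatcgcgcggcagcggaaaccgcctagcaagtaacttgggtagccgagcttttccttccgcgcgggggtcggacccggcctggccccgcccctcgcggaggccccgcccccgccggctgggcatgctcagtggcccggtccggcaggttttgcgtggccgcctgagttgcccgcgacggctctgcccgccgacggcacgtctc
Cldn3: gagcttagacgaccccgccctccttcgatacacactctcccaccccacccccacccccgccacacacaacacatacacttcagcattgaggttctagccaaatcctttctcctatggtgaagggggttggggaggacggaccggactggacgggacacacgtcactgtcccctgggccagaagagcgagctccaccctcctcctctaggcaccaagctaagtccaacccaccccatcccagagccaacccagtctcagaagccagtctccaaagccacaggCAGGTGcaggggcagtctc

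Both strands were searched for CACCTG and CAGGTG, which are the same site read either way. The motif lay just after the start in Ocln, from base 8, in Marveld2, from base 44, and in Cldn3, from base 32, and the Tjp1 window held none. A second annotated Ocln start held it 213 and 68 bases upstream, the first of these being the same site. Of all 32851 promoter windows 20.2% held the motif. Of the 9 members, 6 held it in at least 1 of their windows, and so did 22.6% of 27025 genes. The 6 were Ocln, Marveld2, Cldn3, Cldn4, Cldn7 and Tjp3. They include both members that passed as higher and 4 that did not pass, and a match describes letters, not binding.

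Zeb1 was not called. Its brighter probe set had 1556, 1648 and 1574 in miR-34a samples, against 1382, 1677 and 1646 in vector samples, which overlap. The change was 0.03 ± 0.10 (SE; limma adjusted p = 0.896). Snai1, a repressor known as a miR-34a target in human cells, changed by 0.34 (adjusted p = 0.0887), Zeb2 by 0.73 (adjusted p = 0.199) and Snai2 by -0.01 (adjusted p = 0.991). Without vector 1 Snai2 passed as lower, at -0.39 (adjusted p = 0.0446). Of 6 repressor genes, 2 passed as higher and 0 as lower, beside 6.5% and 5.25% of all genes: Twist1 at 1.56 ± 0.32 and Twist2 at 1.49 ± 0.34 (SE; limma adjusted p = 0.0264 and 0.0364), named after their values were seen. Both calls were lost when any 1 miR-34a array was dropped (adjusted p of 0.0723 to 0.127) or with a robust variance trend (0.0558 and 0.0762) or the replicate block (0.0518 and 0.0878), and that of Twist2 also without vector 3 (0.0809). Without vector 1 their changes were 1.15 and 1.11. Cdh1 changed by 0.08 ± 0.08 (SE; adjusted p = 0.584). Among the 12 epithelial marker genes 1 passed, which is no more than the 11.7% of all genes. It was Spint1, the gene of a matriptase inhibitor, at 1.37 ± 0.16 (SE; limma adjusted p = 0.00615), named after its value was seen.

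The rest of the junction was read from 61 further genes, of which 50 were measured. Of these, 1 passed as higher and 2 as lower, 25 changed by more than 0 and 25 by less, and the median was -0.0027. Over all genes the shares were 6.5% and 5.25%, so these counts were no higher than in the rest of the table. Without vector 1, 5 passed as higher and 5 as lower, in a fit that called 2133 genes in all against 1456.

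Among 15 other claudin genes, 2 passed as lower and 0 as higher, and 11 changed by less than 0. Cldn2, which forms a pore for cations in leaky epithelia, read 4685, 6061 and 6056 in miR-34a samples, against 7384, 9103 and 8009 in vector samples by its main probe set. The groups did not overlap, and the change was -0.55 ± 0.13 (SE; limma adjusted p = 0.0416). Its dimmer probe set read 295.1, 386.9 and 472.3 in miR-34a samples, against 1589.8, 1475 and 1811 in vector samples. That change of -2.05 ± 0.17 (SE; adjusted p over all probe sets 0.00201) has the same sign and is far larger. For the main probe set the call was kept without vector 1 (adjusted p = 0.0191) and lost without any 1 of the other 5 arrays, with adjusted p of 0.0761 to 0.117, and with the replicate block it was 0.0521.

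Cldnd1, a gene with a claudin-like domain, read 936.8, 780.8 and 871.2 in miR-34a samples, against 1041, 1203 and 1284 in vector samples. Its change was -0.44 ± 0.11 (SE; limma adjusted p = 0.0476), and its other probe sets changed by -0.51 and -0.56. All 3 separated the groups. The call of the main one was kept without vector 1 (adjusted p = 0.0138) and lost without any 1 of the other 5, with adjusted p of 0.0983 to 0.147. It was lost as well with the replicate block (0.112) or a pseudocount of 1 (0.0526).

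A pair of claudins had larger differences that did not pass. Cldn6, a claudin of embryonic epithelia, read 105.1, 173.1 and 108.3 in miR-34a samples, against 193.7, 2775 and 845.6 in vector samples. The groups did not overlap, but the vector arrays differed widely among themselves, and the change of -2.49 ± 0.83 (SE) had an adjusted p of 0.0993. It was -1.58 without vector 2 and -3.45 without vector 1, where it passed (adjusted p = 0.00297). Cldn23 read 25.8, 86.9 and 45.2 in miR-34a samples, against 352.6, 97.9 and 171.9 in vector samples, a change of -1.63 ± 0.47 (SE; limma adjusted p = 0.0673). It lay at the 9.4 percentile, changed by -1.19 without vector 1, and passed without vector 2, at -2.04 (adjusted p = 0.0406). Both genes were named after their values were seen. Cldn9, the brightest after Cldn2, changed by -0.19 (adjusted p = 0.419).

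Of 12 other membrane proteins Marveld1 alone passed. Lsr, which encodes angulin-1 of tricellular junctions and recruits tricellulin, changed by 0.17 (limma adjusted p = 0.38), and Vapa by -0.09. Other Vapa probe sets changed by 0.12 and -0.06 and did not pass. The main one and the one at 0.12 each separated the groups, in opposite directions. Among 23 scaffold and polarity genes 0 passed in limma, with 7 at an unadjusted p under 0.05, as had 3498 of all 12393 genes. Their median change was 0.10. Cgnl1, the gene of paracingulin, a relative of cingulin, changed by -0.59 ± 0.16 (SE; limma adjusted p = 0.0555), with 1586, 1625 and 1467 in miR-34a samples and 2922, 2394 and 1872 in vector samples, and was named after its value was seen. The actin regulator gene Rhoa and the junction-associated regulator gene Ybx3, the brightest of the list, changed by -0.04 and -0.11. By their other probe sets they changed by 0.02 and -0.23, and neither of these passed.

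**Figure D4:**
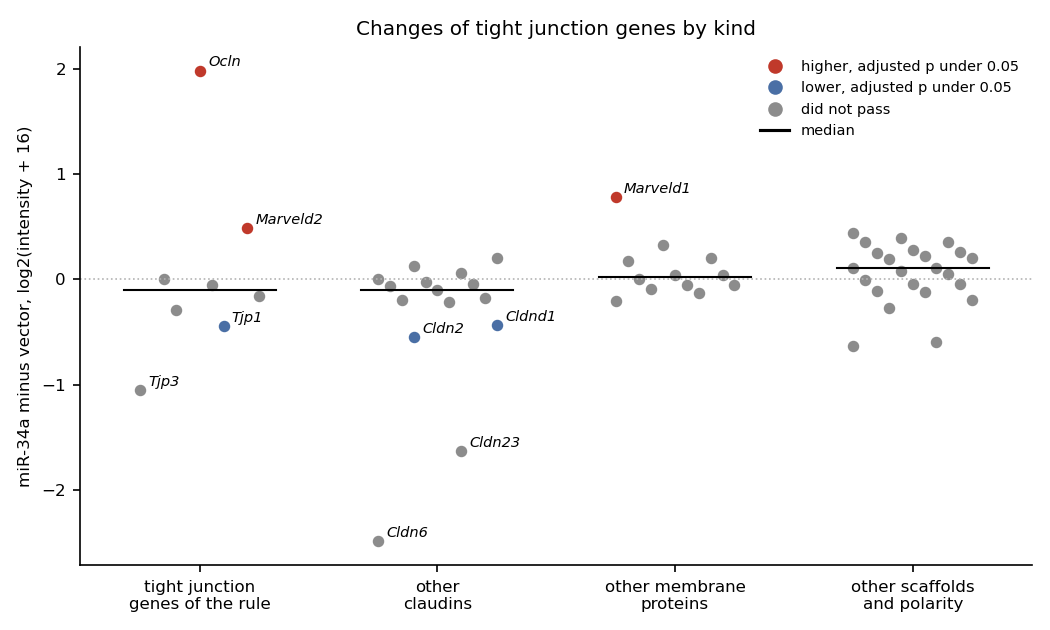
Change of the 8 measured tight junction genes and of 15 other claudin, 12 other membrane protein and 23 scaffold and polarity genes, miR-34a minus vector on the log2(intensity + 16) scale. Each point is a gene, black lines are medians, and red and blue points passed as higher and lower. Ocln stands at the top at 1.98, and Cldn6 at the bottom at -2.49 did not pass.

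Marker lists of other cells are given because junction genes are also used by cell types of the host. Their counts stand beside 6.5% of all genes called as higher and 5.25% as lower. Of all 12393 genes, 6734 had a log2 difference above 0. For skin keratinocytes 0 of 11 measured genes passed. The summed intensity of that list was 3638 to 4097 in miR-34a samples and 3761 to 5819 in vector samples, with Krt14 the brightest and Flg at the 3.9 percentile. For endothelial cells 0 of 11 passed, with sums of 6465 to 7054 in miR-34a samples and 5012 to 8608 in vector samples, Flt1 the brightest and Tek at the 19.1 percentile. For normal lung epithelium 0 of 11 passed, and the sums of 16750.3 to 19309 in miR-34a samples lay above those of 5010.2 to 14597 in vector samples. The surfactant gene Sftpb was the brightest, with 15107, 12915 and 12684.5 in miR-34a samples and 529.2, 9137 and 10646 in vector samples. It made up most of the sum on every array but vector 1, so the sums largely follow this 1 gene. The median change of the list was 0.17. The lowest sum was that of vector 1, and the other vector sums, 12779 and 14597, also lay below those of the miR-34a samples.

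The fibroblast list had 1 of 11 higher and sums of 37868 to 55150.2 in miR-34a samples and 13324 to 47607 in vector samples, with Col1a2 the brightest. Vector 1 alone gave the low end, the other vector sums being 47607 and 37143. In this list 10 of 11 genes had a log2 difference above 0, with a median of 0.73. The macrophage list had 2 of 11 higher and 1 lower, and its sums of 26979 to 31455 in miR-34a samples lay above those of 13967 to 25622 in vector samples, with Ctss the brightest. Vector 1 was again the lowest, the other vector sums being 25622 and 24957, and 10 of 11 genes had a difference above 0, with a median of 0.61. The mast cell list had 4 of 9 higher, and all 9 had a difference above 0, with a median of 1.14. The 4 were the protease genes Tpsb2, 11.5-fold higher in miR-34a samples, Cma1, 7.62-fold, and Cpa3, 6.27-fold, and the IgE receptor gene Fcer1a, 3.82-fold, which lay at the 5.6 percentile. The mast cell genes Kit, Ms4a2 and Hdc differed by only 0.035, 0.019 and 0.05, and their groups overlapped. All of these genes were named after their values were seen. At a log2 difference of 3.53, Tpsb2 had the largest rise of the 12393 genes, though its second probe set differed by 0.10. The sums of the list were 6013 to 10102 in miR-34a samples and 3314 to 6561 in vector samples, and its brightest gene, Tpsab1, which did not pass, differed by 0.12. The nerve and Schwann cell list had 1 of 5 higher and overlapping sums, 3141 to 3300.2 in miR-34a samples and 2499.5 to 3265 in vector samples. No marker in these lists was at 0, since the lowest deposited value is 1. By median level, the fibroblast and macrophage lists lay at the 85.5 and 79.9 percentile of gene levels. The skin, lung, endothelial, mast cell and nerve lists lay at 17.8, 30.8, 31.7, 31.0 and 46.6. Whether the arrays measured tumours or cultured cells was not tested, nor was the part of these cell types in the junction gene values.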

How the data were processed

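Total RNA of 6 samples, 3 of miR-34a and 3 of vector, was biotin-labelled and measured on Affymetrix mouse arrays, per the labels. The authors deposited intensities on a linear scale. How they were summarised and normalized is not given in the sources used here. Array medians lie close together and the lowest value is 1, so they were taken as already scaled.

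Of 22690 probe sets, 64 controls were left out. Those with 1 symbol in the platform annotation were brought up to date by Entrez identifier, with RefSeq names of GRCm38.p6. The probe set with the highest mean log2 value stood for each gene, and every member probe set was also fitted. Values were analysed as log2(intensity + 16) with lmFit and eBayes of limma 3.58.1 (R 4.3.3), two-sided, without trend or block, with Benjamini-Hochberg adjustment over all 12393 genes, or all 22626 probe sets, at 0.05. The gene fit was tested on simulated data.

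The sample titles gave the groups and replicate numbers. The members, lists, tests and the rule for named genes were chosen with earlier results of these data known. That rule took all members, called genes and the 2 brightest of each other junction list, Zeb1, Zeb2, Snai1, Snai2, Cdh1, Epcam, the 3 genes most like Ocln and the brightest and dim genes of marker lists. Mpp5 was matched to Pals1 by synonym. Promoter and miRNA sequences are from RefSeq, and protein sequences were not used here. Alternatives were other pseudocounts (1 and 64), quantile normalization, median centring, leaving out dim genes, array weights, averaging probe sets, a variance trend with robust fitting, other thresholds, dropping each array in turn and a replicate block. Figures were drawn with matplotlib 3.10.9.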

Additional observations from a re-analysis of the deposited data

How the results depend on the processing

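With 3 arrays a group, single arrays decided most calls. Of the members, Ocln passed in all 15 other settings. All genes called numbered 1456, and 226 to 2133 with 1 array left out, 3238 with array weights, 522 with the replicate block, 2422 at an adjusted p under 0.1 and 248 at 0.01. Members called higher numbered 2. They were 1 in each fit without 1 array, with a pseudocount of 1, quantile normalization, median centring or the replicate block, and at 0.01. Members called lower numbered 1, and 0 to 1 with 1 array left out, 0 with the replicate block and 0 at 0.01. The members' median change of -0.10 ran from -0.20 to -0.01 over these settings. Member probe sets called numbered 3, and 1 to 2 with 1 array left out, 5 with array weights, 1 with the replicate block, 5 at 0.1 and 1 at 0.01. Other junction genes called higher numbered 1, and 0 to 5 with 1 array left out, 2 with dim genes left out or with averaged probe sets, 7 with array weights, 0 with the replicate block, 3 at 0.1 and 0 at 0.01. Those called lower numbered 2, and 0 to 5 with 1 array left out, 1 with a pseudocount of 1, 6 with array weights, 1 with the replicate block, 6 at 0.1 and 0 at 0.01. Fits without 1 array have fewer samples, which by itself can lower a count. For the other settings the cause was not tested. Same-numbered samples did not deviate together (correlation of deviations across genes -0.168, -0.0935 and -0.0812). With 3 arrays a group, 1 of them standing apart, these correlations cannot exclude a pairing. The sample titles give only a number, so whether the block is a pairing is not known. No detection calls were used, so dim probe sets are not told apart from background.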

Other observations

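Ocln and Marveld2 are neighbours on mouse chromosome 13, with 0 other protein-coding genes between them in the RefSeq table. Both were higher in miR-34a samples, so the 8 protein-coding genes on each side were looked at after these values were seen. Of the 16, 9 were measured and their changes ran from -0.45 to 0.40, with a median of 0.06. Of the 9, 1 passed, the centromere protein gene Cenph, which was lower at -0.45 ± 0.086 (SE; limma adjusted p = 0.0214). The nearest measured genes on either side were Naip6 at -0.0009 and the checkpoint gene Rad17 at -0.14 (adjusted p = 0.997 and 0.7).

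The 3 genes most like Ocln over the 6 arrays, among 6196 genes at or above the median level, were Icam1, Csrp1 and Ip6k1. Their Pearson correlations with Ocln across the 6 arrays, given as a description without a test, were 0.9977, 0.9973 and 0.9953. The difference between the groups sets most of these values. Icam1, a leukocyte adhesion receptor gene, read 3643, 2915 and 3294 in miR-34a samples and 676.0, 884.7 and 781.0 in vector samples. Csrp1, the gene of an actin-associated LIM protein, read 4115, 3706 and 3828 in miR-34a samples and 2193, 2480.4 and 2198 in vector samples. Ip6k1, an inositol phosphate kinase gene, read 2007, 1811 and 1949 in miR-34a samples and 1183, 1339 and 1228 in vector samples. In all 3, as in Ocln, miR-34a 1 was the highest array and vector 2 the highest vector array. Genes picked by their correlation over these arrays tend to share such an order, so it is no separate likeness.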
